A study of Mus musculus with 4 samples.

Results

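Glycolysis and the response to low oxygen were followed through 37 genes in mouse natural killer (NK) cells. The list holds 3 glucose and lactate transporters, 16 glycolytic enzymes, 6 regulators and branch enzymes, 4 genes of the hypoxia-inducible factor (HIF) and its control, and 8 further genes listed for hypoxia. Each was taken by its symbol from a table of 37305 rows, and all 37 were found, each on 1 row. FPKM, the unit of the table, scales sequenced fragments to transcript length and to the library's mapped fragments, so levels of different genes can be compared within a library. Of the 37 genes, 33 averaged 1 FPKM or more, as did 12275 rows in all, and these entered the fit. Eno2, Ldhb, P4ha2 and Mxra8 stayed under that level. The list was drawn up by function, with 2 exceptions that used measured values. Gpd2 was added because it had been seen lower with DKK2, so its difference is a description without a test, and Gapdh was left out because the table counts it poorly. Mxra8, a gene for a cell adhesion protein, is on the list although it is not a standard gene of either pathway.

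Spleens of C57BL/6 mice, taken at postnatal day 56, gave the primary NK cells. All libraries share 24 hours of culture with IL-15 (recombinant, mouse; 50 ng/ml), the cytokine that keeps NK cells alive. The control group (2 libraries) then received mock treatment and the DKK2 group (2 libraries) received DKK2 at 200 ng/ml, both for another 24 hours. DKK2 is a secreted protein that binds co-receptors of Wnt signalling. Nothing in the sources says whether the replicates came from separate animals or cultures, so errors and p-values below measure the spread between libraries alone, and that spread may be technical. Oxygen in the cultures is not described in the labels.

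Glycolysis breaks glucose down to pyruvate in the cytosol, and lactate dehydrogenase turns pyruvate into lactate when it does not enter the mitochondria. NK cells raise this pathway when cytokines activate them, and interferon-gamma and granzyme production draw on it. The transcription factor subunit HIF-1 alpha (Hif1a) is hydroxylated by the EGLN enzymes when oxygen is present and is then marked for destruction by VHL. In low oxygen it persists, pairs with ARNT and binds the core sequence ACGTG or GCGTG of hypoxia response elements, which lie near many glycolytic genes and near Bnip3, Egln3, Vegfa, P4ha1 and Ankrd37.

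Promoter windows from RefSeq (GRCm38.p6), 250 bases before to 50 bases after a gene's start, were at hand for 35 of the 37 genes, 2 of them under a newer symbol, and Slc2a3 and Bnip3l had no entry. Both strands were searched. ACGTG was found for 24 of the 35 genes (68.6%), against 30.3% of the 7536 genes in the fit that had a window and 21.8% of all 27025 genes with one. GCGTG was found for 21 genes (60%) against 56.9% and 35.2%. CACGTG, the E-box, which contains ACGTG, was found for 6 genes (17.1%) against 12.2% and 8.09%. The listed genes had 1.46 windows each on average and the genes in the fit 1.28, which also bears on these shares. A match is a description of the letters and not a binding site. Below are the 250 bases before the start for Ankrd37, Bnip3 and P4ha1, which were lowest in control replicate 1, and for Aldoc (the first of its 2 windows), whose groups lay farthest apart relative to their spread. They run 5′ to 3′ along the gene, with ACGTG and GCGTG on either strand in capitals.
Ankrd37, chr8:45999851-46000100, minus strand: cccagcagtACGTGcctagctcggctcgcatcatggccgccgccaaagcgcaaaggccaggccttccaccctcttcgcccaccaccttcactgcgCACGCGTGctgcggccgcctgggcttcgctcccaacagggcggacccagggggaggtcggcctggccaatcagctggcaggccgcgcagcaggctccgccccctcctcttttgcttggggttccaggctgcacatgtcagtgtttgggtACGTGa
Bnip3, chr7:138909507-138909756, minus strand: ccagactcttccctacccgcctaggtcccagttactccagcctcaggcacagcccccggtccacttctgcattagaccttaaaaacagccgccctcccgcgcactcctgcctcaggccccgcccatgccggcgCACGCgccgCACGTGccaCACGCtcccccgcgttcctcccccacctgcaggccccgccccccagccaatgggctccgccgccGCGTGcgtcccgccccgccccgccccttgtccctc
P4ha1, chr10:59323046-59323295, plus strand: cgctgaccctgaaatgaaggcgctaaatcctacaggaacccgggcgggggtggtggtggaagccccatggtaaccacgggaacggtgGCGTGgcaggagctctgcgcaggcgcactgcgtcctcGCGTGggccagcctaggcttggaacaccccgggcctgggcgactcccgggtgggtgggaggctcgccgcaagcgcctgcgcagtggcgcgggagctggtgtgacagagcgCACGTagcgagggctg
Aldoc, chr11:78322823-78323072, plus strand: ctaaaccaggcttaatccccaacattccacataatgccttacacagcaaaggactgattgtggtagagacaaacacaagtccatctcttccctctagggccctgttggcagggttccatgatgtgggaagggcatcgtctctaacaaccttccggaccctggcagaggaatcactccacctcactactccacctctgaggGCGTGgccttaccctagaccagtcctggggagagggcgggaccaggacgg
In these stretches the core occurred 4 times for Ankrd37, 5 times for Bnip3, 3 times for P4ha1 and 1 time for Aldoc. The shares above also cover the 50 bases after the start, which are not printed. With them this Aldoc window held 1 ACGTG and 2 GCGTG, and the counts of Ankrd37, Bnip3 and P4ha1 did not change. The Bnip3 stretch holds both strands of CACGTG, counted as 2 matches of ACGTG, and in Ankrd37 a pair of GCGTG matches on opposite strands overlaps.

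The libraries differed in depth and in the RNA levels of markers of other cells. Low values move in steps of whole fragments, by which the other libraries had 0.351 to 0.400 of the depth of control replicate 1. The 16 NK cell markers summed to 27260 to 40200 FPKM, most of it from Gzma and Gzmb. Of the defining receptors, Ncr1 was at 192.8 to 388.6 FPKM and Klrb1c at 272.1 to 523.3 FPKM, while Itga2 was at 6.049 to 9.772 FPKM. Markers of other cells were mostly lowest in control replicate 1. Of 91 markers on 7 lists, 87 were in the table and 56 in the fit, and 49 of the 56 were lowest there, against 19.3% of all 12275 genes. Summed neutrophil and basophil markers were at 5.313 FPKM in control replicate 1 and at 258.5, 3743 and 391.8 FPKM in control replicate 2, DKK2 replicate 1 and DKK2 replicate 2. Summed monocyte and macrophage markers were at 419, 952.1, 1637 and 1323 FPKM, and Ccr2, which NK cells can express, gave 352.3 of the 419 FPKM. B and plasma cell markers summed to 7.842, 293.7, 589.1 and 583.1 FPKM, T cell markers to 76.2, 175.1, 279.1 and 243.2 FPKM, and erythroid and platelet markers to 0.3943, 17.42, 9.841 and 24.35 FPKM. Dendritic cell markers (599, 480.9, 408.8 and 546.6 FPKM) and stromal markers (141.4, 124.5, 72.08 and 127.4 FPKM) summed lowest in DKK2 replicate 1, but Irf8 (471.9 of the 599 FPKM) and Pecam1 (139.6 of the 141.4 FPKM) carried those sums. Of the 4 dendritic cell markers in the fit, 1 was lowest in control replicate 1, 2 in control replicate 2 and 1 in DKK2 replicate 1. Of the 2 stromal markers in the fit, 2 were lowest in DKK2 replicate 1. In control replicate 1, 21 markers were listed at 0, among them C1qa, C1qc, Marco, Retnlg, Cxcr2 and Cd8a, and in the others 4 to 6. In RNA from many cells, fewer cells of a type and less RNA per cell cannot be told apart. All values below follow this order: control replicate 1, control replicate 2, DKK2 replicate 1, DKK2 replicate 2.

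**Figure D1:**
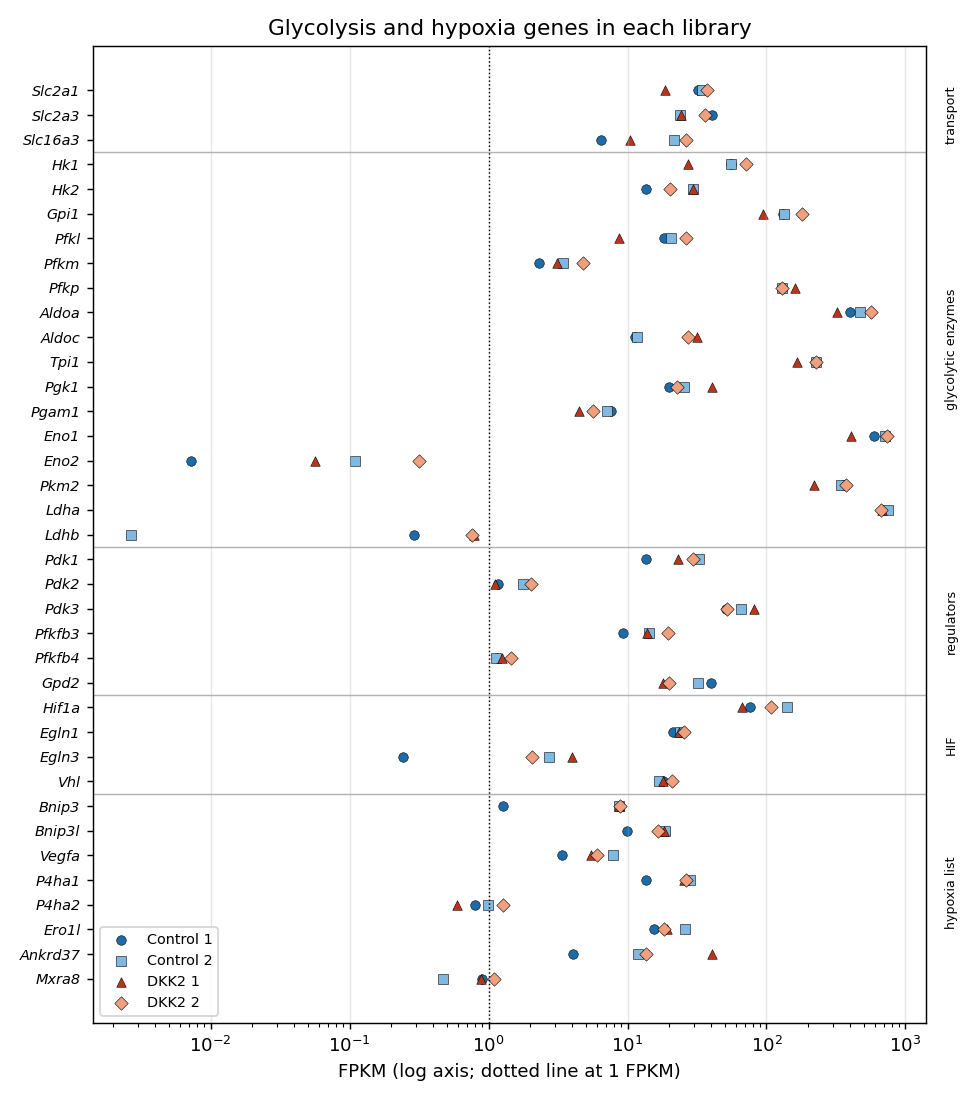
FPKM of the 37 genes (log axis) in each of the 4 libraries, 1 marker per library, grouped by role. Ldha, Eno1, Aldoa, Pkm2 and Tpi1 form the top in every library, and Eno2 and Ldhb lie under 1 FPKM in all 4.

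Ldha, Eno1, Aldoa, Pkm2 and Tpi1 were among the most abundant transcripts of these cells. Ldha, which makes lactate, was at 680.9, 754.5, 676.5 and 670.6 FPKM, above 98.9% of the genes in the fit by its mean. Eno1, the main enolase, was at 590.0, 706.8, 408.6 and 739.8 FPKM, and Aldoa, which splits the sugar into its trioses, at 396.5, 467.0, 322.8 and 564.8 FPKM. Pkm2, the symbol under which the table lists pyruvate kinase of muscle type, stood at 357.4, 341.3, 221.1 and 373.6 FPKM. For Tpi1, which interconverts the trioses, the levels were 226.6, 228.6, 166.6 and 229.0 FPKM. DKK2 replicate 1 was the lowest library for Eno1, Aldoa, Pkm2 and Tpi1, while DKK2 replicate 2 was the highest, so the groups overlapped. For Ldha the groups did not overlap, but the controls and the DKK2 libraries differed by only -0.09 ± 0.28 (log2, standard error of limma's fit).

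The isomerase, phosphofructokinases and hexokinases ran at lower levels. Gpi1, the isomerase, was at 131.9, 134.5, 94.78 and 179.8 FPKM. Pfkp, the platelet type, was at 129.5, 128.6, 159.7 and 128.7 FPKM, and 3 of the 4 libraries were nearly equal. Hk1, the constitutive hexokinase, which traps glucose in the cell, was at 55.99, 55.94, 27.07 and 71.26 FPKM. The controls were equal, and the DKK2 libraries lay on either side of them. Hk2, the inducible hexokinase, was at 13.67, 29.7, 29.84 and 20.15 FPKM, lowest in control replicate 1. Pfkl, the liver type of phosphofructokinase, was at 18.19, 20.62, 8.744 and 26.43 FPKM, and Pfkm, the muscle type, at 2.313, 3.424, 3.114 and 4.78 FPKM.

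Pgk1 and Pgam1 were listed far below their neighbours in the pathway. Pgk1, the phosphoglycerate kinase, was at 19.88, 25.59, 40.49 and 22.7 FPKM, highest in DKK2 replicate 1. Pgam1, the phosphoglycerate mutase, was at 7.565, 7.074, 4.509 and 5.691 FPKM, and both DKK2 libraries lay below both controls (-0.45 ± 0.27). Gapdh, which acts between Tpi1 and Pgk1, was listed at 1.858, 1.899, 1.552 and 1.613 FPKM. A search of the GENCODE M21 pseudogene transcripts with 1 transcript of each gene found 143 pseudogenes with at least 500 aligned bases at 90% identity or more for Gapdh. By the same search Ldha had 8, Eno1 and Pkm2 5 each, Bnip3 4, Pgam1 3 and Pgk1 and Aldoa 2 each. Of the 37 genes 26 had none and 11 had at least 1. How the authors shared fragments among such copies is not stated in any source, so levels of these 11 genes are uncertain.

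In the enolase, lactate dehydrogenase, aldolase and phosphofructokinase families a single gene gave most of the transcripts. Eno1 gave 97.7% to 98.8% of summed enolase FPKM, with Eno2, the neuronal form, at 0.007277, 0.1088, 0.05667 and 0.3184 FPKM. Ldha gave at least 99.8% of lactate dehydrogenase FPKM, and Ldhb, the heart form, was at 0.2912, 0.002674, 0.7818 and 0.7664 FPKM. Both DKK2 libraries were above both controls for Ldhb, but the value in control replicate 2 corresponds to less than 1 fragment (0.07) and the others to about 21 to 23 fragments. Pfkp gave 80.5% to 93.1% of phosphofructokinase FPKM. The hexokinases were more mixed. Hk1 gave 77.7%, 54.6%, 41% and 57.7% of their FPKM and Hk2 19%, 29%, 45.2% and 16.3%. The rest was Hk3, typical of myeloid cells, at 2.364, 16.74, 9.072 and 32.14 FPKM. DKK2 replicate 1 was thus the only library in which Hk2 exceeded Hk1, and with 1 library of 2 in its group this is no difference between the groups.

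**Figure D2:**
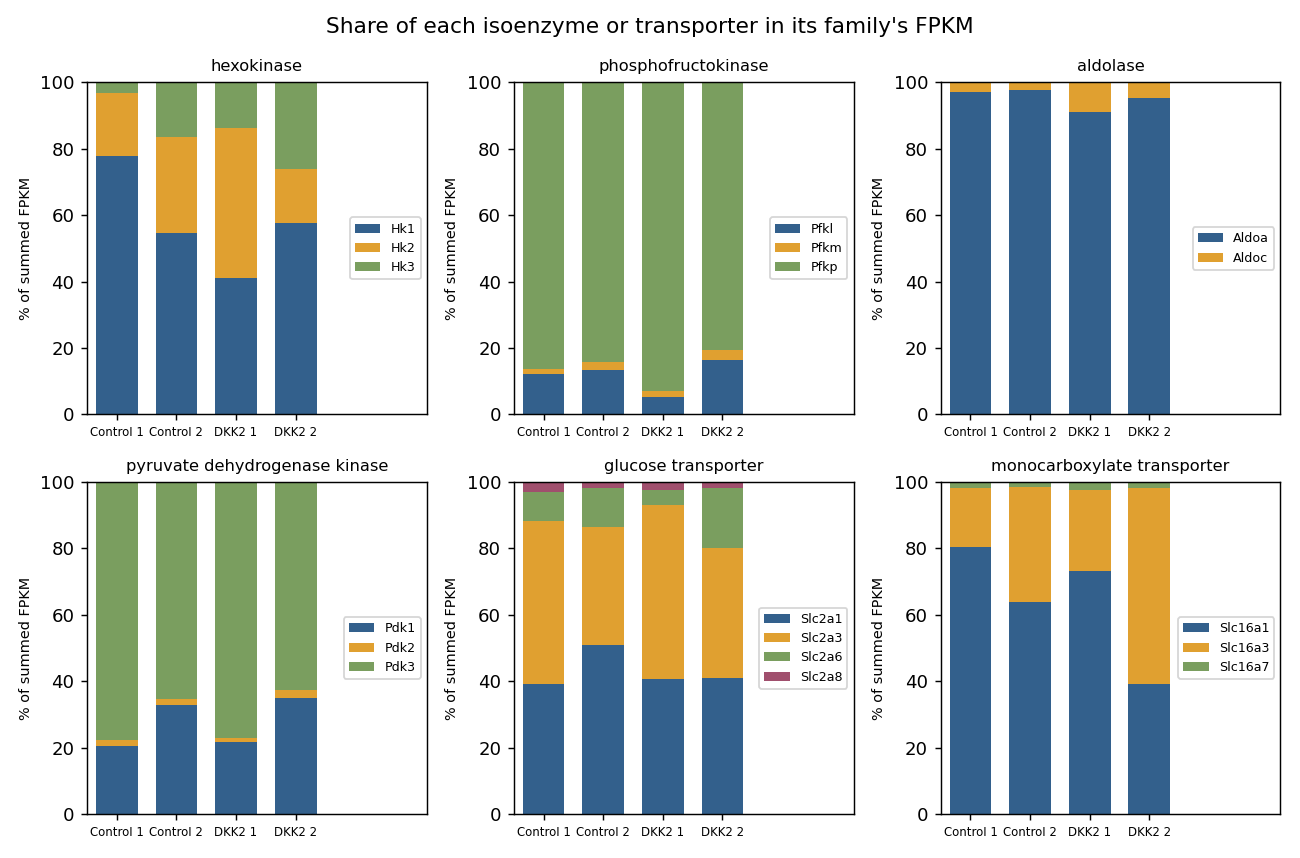
Share of each gene in the summed FPKM of its family (percent), per library. Pfkp and Aldoa dominate their families in every library, while the shares of Hk1 and Hk2 and of Slc16a1 and Slc16a3 move between libraries of the same group; genes under 1% everywhere are not drawn.

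No gene of the list passed limma's test of DKK2 against control. Of all 12275 genes 0.0326% were called (0.00815% as higher and 0.0244% as lower, adjusted p under 0.05, Benjamini-Hochberg). Limma's adjusted p was 0.9996 for each of the 32 genes in the fit other than Gpd2. With no adjustment, 1 of these 32, Aldoc, had a limma p under 0.05, as had 1.08% of all genes on the higher side and 0.766% on the lower. Mean log2 differences were above 0 for 19 of the 33 genes, against 43.6% of all genes, and below 0 for 14, against 56.4%. Without control replicate 1 the split was 12 above and 21 below, against 6262 and 6020 over all genes. Without DKK2 replicate 1 it was 27 above and 7 below, against 6010 and 6208, with 1 more listed gene over the filter. The median was 0.11 over the 33 genes (0.12 without Gpd2) and -0.05 over all genes, and without control replicate 1 it was -0.13. Both DKK2 libraries lay above both controls for 3 genes (9.09%), against 11.8% of all genes. They lay below for 3 (9.09%), Gpd2 among them, against 14.8%. Neither share exceeded that of all genes.

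**Figure D3:**
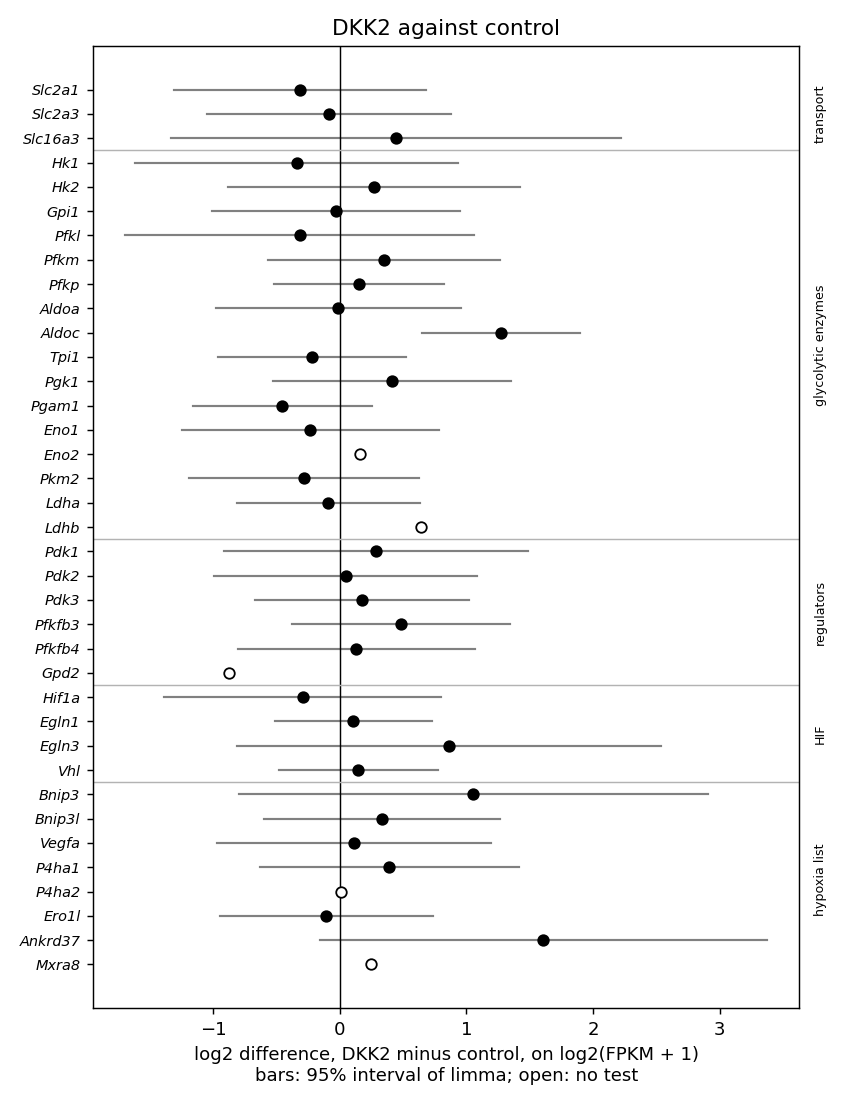
log2 difference of each gene, DKK2 minus control, on the log2(FPKM + 1) scale, with limma's 95% interval before any adjustment. Only the interval of Aldoc leaves out 0, and open points mark Gpd2 and the 4 genes under 1 FPKM, which have no test.

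Aldoc, the aldolase of brain type, showed the clearest separation among the listed genes. It was at 11.35, 11.72, 31.44 and 27.25 FPKM. The controls were nearly equal, and both DKK2 libraries were far above them. The log2 difference was 1.27 ± 0.24 (limma's 95% interval 0.65 to 1.89, adjusted p = 0.9996), so it did not pass over all genes. It stayed between 1.17 and 1.37 when any 1 library was left out. Summed markers of monocytes, neutrophils, B cells and T cells were also higher in both DKK2 libraries than in both controls, as given above, and their part in the Aldoc values was not tested. Aldoc still gave only 2.78%, 2.45%, 8.88% and 4.6% of aldolase FPKM, the rest being Aldoa. No pseudogene copy of Aldoc was found.

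Gpd2, the mitochondrial glycerol phosphate dehydrogenase, passes electrons from cytosolic glycolysis to the respiratory chain and was chosen for its difference. Its levels were 39.57, 32.07, 18.13 and 19.89 FPKM. Both DKK2 libraries lay below both controls, by -0.87 in the mean on the log2 scale, and by -1.02 to -0.73 when 1 library was left out. These values describe the choice. Gpd1, its cytosolic partner in the glycerol phosphate shuttle, was at or under 0.1604 FPKM in every library.

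The other regulators decide how fast sugar enters glycolysis and how much pyruvate enters mitochondria. Pfkfb3, which makes the activator of phosphofructokinase, was at 9.216, 14.18, 13.76 and 19.47 FPKM (0.48 ± 0.33). DKK2 replicate 1 lay just under control replicate 2, so the groups overlapped. Pfkfb4, its relative, was at 1.15, 1.13, 1.25 and 1.441 FPKM, with the DKK2 libraries above the controls by less than the error (0.13 ± 0.36). The kinases that switch off pyruvate dehydrogenase were led by Pdk3, at 51.04, 65.33, 81.38 and 52.35 FPKM, or 62.5% to 77.5% of their summed FPKM. Pdk1, a HIF target, followed at 13.5, 32.76, 23.04 and 29.38 FPKM, lowest in control replicate 1. Pdk2 was at 1.168, 1.772, 1.11 and 2.037 FPKM.

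Both glucose transporters were present at like levels. Slc2a1 was at 32.41, 34.24, 18.73 and 37.62 FPKM, with DKK2 replicate 1 alone low. Slc2a3, the high-affinity form, was at 40.86, 24.06, 24.23 and 35.9 FPKM, so each group held 1 high and 1 low library. Slc16a3, the transporter that exports lactate from glycolytic cells, was at 6.489, 21.5, 10.41 and 26.35 FPKM. Its spread within each group, 1.59 in the controls and 1.26 in the DKK2 libraries (log2, replicate 2 minus replicate 1), exceeded the difference of 0.44 ± 0.69 between them. Slc16a1, the other main lactate transporter, was at 29.8, 39.61, 31.1 and 17.52 FPKM. Slc16a3 therefore had the larger share of the family in DKK2 replicate 2 (58.9%) and the smaller in the other 3 libraries (17.5% to 34.6%).

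**Figure D4:**
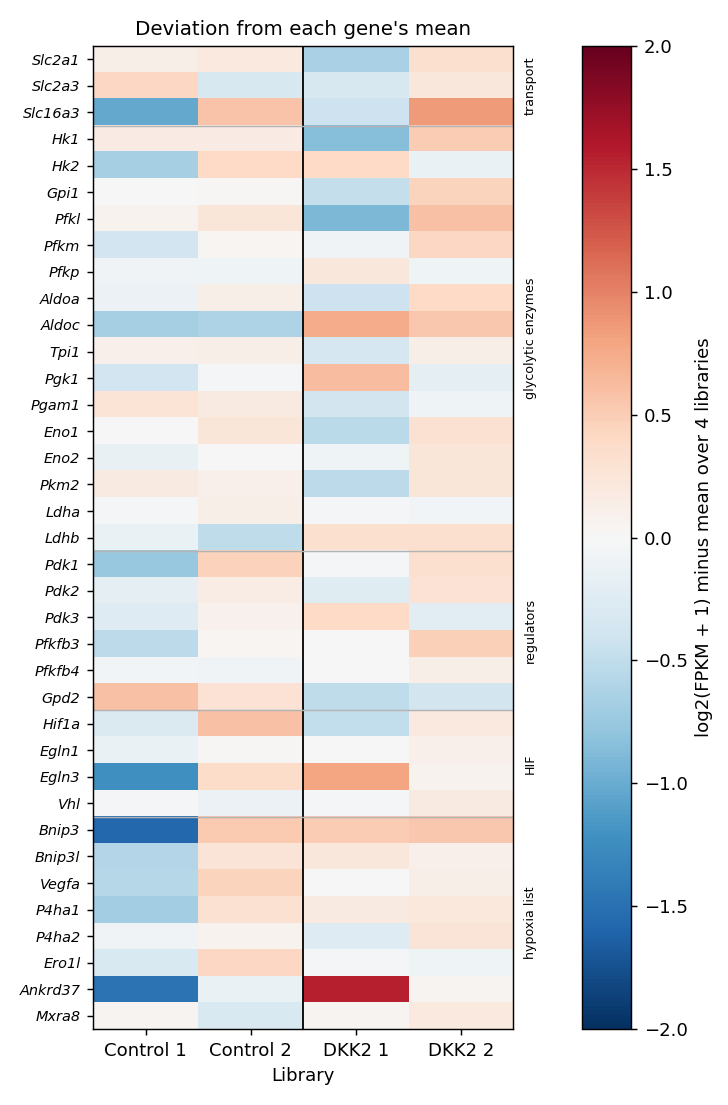
Deviation of each gene from its own mean over the 4 libraries, on the log2(FPKM + 1) scale (blue lower, red higher; colours end at ±2). Control 1 is the lowest library for 6 of 6 genes of the hypoxia list in the fit, and DKK2 1 for 8 of 14 glycolytic enzymes.

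Seen by library, 2 blocks of genes were picked out after the values were seen, by which library was lowest. One block was lowest in DKK2 replicate 1 and highest in DKK2 replicate 2. It held 9 of the 33 genes (27.3%, against 12.9% of all genes): Slc2a1, Hk1, Gpi1, Pfkl, Aldoa, Tpi1, Eno1, Pkm2 and Pdk2. Differences between the DKK2 libraries reached 1.49 for Pfkl and 1.36 for Hk1 (log2), while the controls differed by only 0.17 for Pfkl and were at 55.99 and 55.94 FPKM for Hk1. Summed FPKM of the 16 glycolytic enzymes was 2642, 2915, 2196 and 3066. Being lowest in DKK2 replicate 1 was by itself not particular to the list, at 12 of 33 genes (36.4%) against 35.5% of all genes. Without DKK2 replicate 1, the log2 difference between the groups turned from -0.34 to 0.34 for Hk1, from -0.32 to 0.43 for Pfkl, from -0.23 to 0.20 for Eno1 and from -0.28 to 0.10 for Pkm2. Summed markers of neutrophils, monocytes, B cells, T cells and NK cells were all highest in DKK2 replicate 1. The NK cell sums were 31550, 30960, 40200 and 27260 FPKM, so they were lowest in DKK2 replicate 2. Dendritic cell and stromal sums were lowest in DKK2 replicate 1, and erythroid sums were highest in DKK2 replicate 2. The part of any of these cells in these values was not tested.

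The other block was lowest in control replicate 1. It held 16 of the 33 genes (48.5%), where 19.3% of all genes were lowest in that library. Aldoc and Ankrd37 are among the 16, and their groups did not overlap. For some of the 16 the margin was small. Aldoc was at 11.35 FPKM there and 11.72 FPKM in control replicate 2, and Pdk3 at 51.04 FPKM there and 52.35 FPKM in DKK2 replicate 2. Bnip3, a mitochondrial protein that starts mitophagy, was at 1.281, 8.705, 8.693 and 8.872 FPKM. The other 3 libraries were equal, so the mean difference of 1.06 ± 0.72 between the groups rests on control replicate 1 and was 0.01 without it. P4ha1, a collagen prolyl hydroxylase, showed the same shape at 13.53, 28.14, 25.7 and 26.3 FPKM. Bnip3l, the relative of Bnip3, was at 9.876, 18.67, 18.16 and 16.66 FPKM. Vegfa, the vascular growth factor, was at 3.398, 7.908, 5.477 and 6.07 FPKM. Ero1l, an oxidase of protein folding, was at 15.53, 26.1, 19.11 and 18.25 FPKM. Control replicate 2 was the highest library for these genes except Bnip3, where it lay within the DKK2 range. Without control replicate 1 the differences of P4ha1, Bnip3l and Vegfa turned from 0.39, 0.33 and 0.11 to -0.11, -0.10 and -0.40. Over the 6 genes of the hypoxia list in the fit, control replicate 2 minus control replicate 1 ran from 0.71 (Ero1l) to 2.09 (Bnip3), beside a median of -0.08 over all genes. The median of DKK2 replicate 2 minus DKK2 replicate 1 was -0.02 over the same 6. Control replicate 2 was the highest library for 7 of the 33 genes (21.2%), against 14.9% of all genes. Markers of other cells were also mostly lowest in control replicate 1 (49 of 56), but were highest in other libraries than the hypoxia list. Control replicate 2 was highest for 2 of the 56 markers, DKK2 replicate 1 for 22 and DKK2 replicate 2 for 27. For the 6 genes of the hypoxia list these counts were 4, 1 and 1. The part of other cells in these values was not tested.

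**Figure D5:**
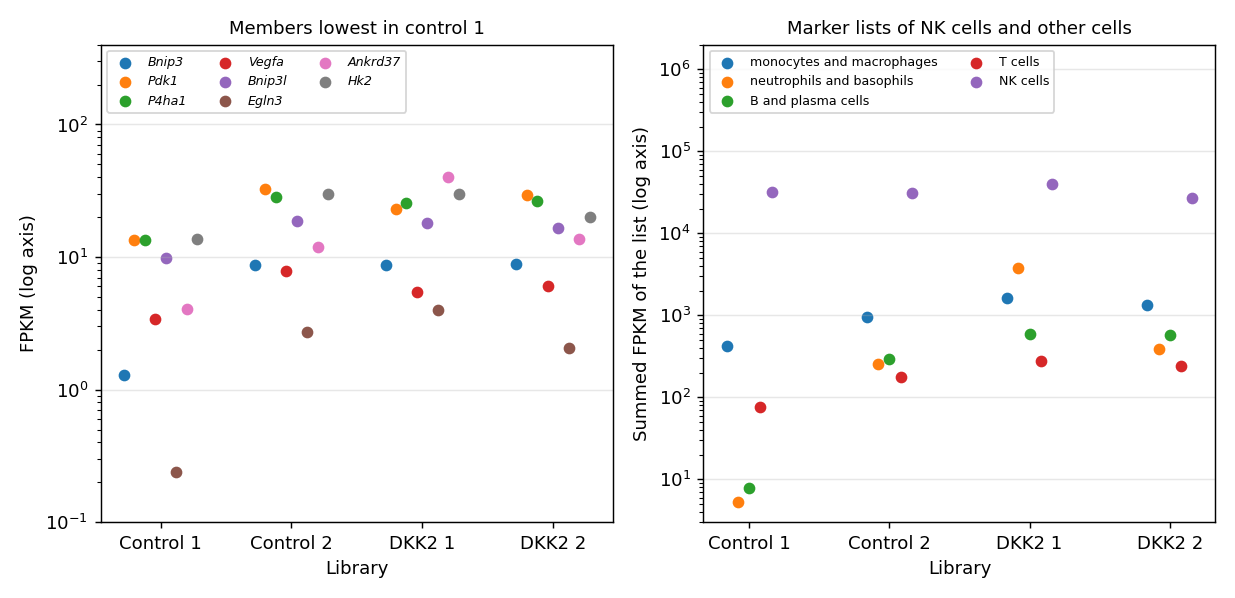
Left, FPKM (log axis) of 8 listed genes that were lowest in control 1. Right, summed FPKM (log axis) of marker lists per library; the 4 lists of other cells drawn are lowest in control 1, from 5.313 FPKM for neutrophils and basophils to 419 FPKM for monocytes and macrophages, while the NK cell list stays between 27260 and 40200 FPKM.

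Ankrd37, an ankyrin repeat protein induced by HIF, had the largest mean difference of the list. It was at 4.056, 11.83, 40.27 and 13.63 FPKM, which gave 1.61 ± 0.68 (adjusted p = 0.9996). Both DKK2 libraries were above both controls, but DKK2 replicate 2 lay only just above control replicate 2. The difference was 0.86 without DKK2 replicate 1 and 0.94 without control replicate 1. It ranged from 0.86 to 2.36 when 1 library was left out. By the RefSeq annotation Ankrd37 overlaps Ufsp2, a protease gene, which was at 20.64, 26.4, 28.76 and 22.89 FPKM. Whether the authors counted by strand is not stated in any source, so fragments of the overlap cannot be assigned. In all, 17 of the 37 genes overlap another RefSeq gene. For 6 of them it has a name other than a Gm or LOC number, among these Hk1os, which is named after Hk1 itself. P4ha2, another collagen prolyl hydroxylase, was at 0.8032, 0.9875, 0.5914 and 1.276 FPKM, and Mxra8 at 0.8926, 0.4673, 0.8757 and 1.086 FPKM.

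Of the oxygen sensing genes, Egln1 and Vhl differed little between libraries, and Hif1a and Egln3 more. Hif1a was at 76.44, 140, 66.45 and 106.9 FPKM, with replicate 2 higher than replicate 1 in both groups (-0.29 ± 0.42). Egln1, the main oxygen sensor, was at 21.36, 24.05, 23.56 and 25.48 FPKM (0.11 ± 0.24), and Vhl at 18.07, 16.93, 18.01 and 21.06 FPKM (0.15 ± 0.24). Their 95% intervals, -0.51 to 0.73 and -0.48 to 0.78, leave room for changes in either direction. Egln3, a hydroxylase that HIF itself induces, was at 0.2409, 2.743, 4.009 and 2.068 FPKM, or about 36 fragments in control replicate 1 and 126 to 241 in the others. It belongs to the genes lowest in control replicate 1, and its difference was 0.86 ± 0.65 with that library and 0.07 without it. Egln2, which is not on the list, was at 11.84, 8.299, 9.713 and 11.96 FPKM, and Arnt, the partner of Hif1a, at 16.47, 15.14, 14.15 and 21.04 FPKM.

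Further genes of these pathways were not called either. Of 26 other glycolysis and pyruvate genes in the fit, 18 were lower and 8 higher in the mean (median -0.13), against 56.4% and 43.6% of all genes. Limma called 0 of the 26 (0 also at an unadjusted p under 0.05). Both DKK2 libraries lay above both controls for 2 of the 26, against 11.8% of all genes, and below for 7, against 14.8%. They lay below for Pgm1, the phosphoglucomutase, at 25.91, 21.68, 14.89 and 20.16 FPKM. The same held for Pdp1, which reactivates pyruvate dehydrogenase, at 20.04, 21.79, 19.77 and 13.93 FPKM, and for Pdha1, a subunit of that enzyme, at 55.71, 56.97, 48.79 and 44.14 FPKM. Among enzymes of the malate-aspartate shuttle, Mdh1 stood at 439.2, 411.2, 333.9 and 402.2 FPKM. Got1 stood at 46.78, 43.51, 39.5 and 38.58 FPKM. All 9 genes of the pentose phosphate branch were lower in the mean (median -0.27), as were 56.4% of all genes. DKK2 replicate 1 was lowest for 6 of the 9, against 35.5% of all genes, and control replicate 1 highest for 5, against 31.6%. The median of DKK2 replicate 1 minus control replicate 1 was -0.68, and that of DKK2 replicate 2 minus control replicate 2 was -0.09. Both DKK2 libraries lay below both controls for 2 of the 9, near the 14.8% of all genes. Rpia, the ribose phosphate isomerase, was at 94.06, 60.8, 50.54 and 56.93 FPKM, and Prps2 at 37.67, 37.25, 36.08 and 26.36 FPKM. Limma called 0 of the 9 (0 also at an unadjusted p under 0.05).

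Among 12 other components of the HIF pathway, 9 were lower and 3 higher (median -0.06), against 56.4% and 43.6% of all genes. Siah2, a ubiquitin ligase that acts on the EGLN enzymes, was at 13.4, 11.18, 10.7 and 9.137 FPKM. Of 28 other hypoxia-induced genes, 19 were higher and 9 lower (median 0.13), against 43.6% and 56.4% of all genes. Control replicate 1 was the lowest library for 13 of the 28, against 19.3% of all genes. Both DKK2 libraries lay above both controls for 5 of the 28 and below for 3, against 11.8% and 14.8% of all genes. Egln2 was counted in both of these lists. Limma called 0 in both lists (0 also at an unadjusted p under 0.05). Cxcr4, a chemokine receptor, was at 3.008, 15.98, 17.3 and 36.15 FPKM (1.66 ± 0.78) and was also lowest in control replicate 1. Ddit4, an inhibitor of mTOR, went the other way at 29.16, 39.72, 20.49 and 26.54 FPKM (-0.53 ± 0.29), as did Angptl4 at 10.16, 6.946, 6.66 and 6.048 FPKM. Kdm4b was at 7.329, 7.39, 9.104 and 7.924 FPKM and Zfp395 at 6.595, 6.139, 6.864 and 7.824 FPKM. Of 7 MYC and mTOR pathway regulators in the fit, 6 were lower and 1 higher (median -0.30), against 56.4% and 43.6% of all genes. DKK2 replicate 1 was lowest for 4 of the 7. Medians of DKK2 replicate 1 minus control replicates 1 and 2 were -0.49 and -0.28, and those of DKK2 replicate 2 were -0.10 and 0.38. Limma called 0 of the 7 (0 also at an unadjusted p under 0.05).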

How the data were processed

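RNA of 4 libraries was measured, 2 control and 2 DKK2. The authors deposited FPKM values, per the file headers, although the file's title says RPKM. Tools listed in the submitters' processing notes, with no role given, are TopHat2 2.1.0 and Cuffdiff 2.1.0, CASAVA and edgeR, and the build is mm9. Annotation, strand use and treatment of multiply mapped fragments are not given in the sources used here. Each value column carries a sample's name, and 0 were unused.

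Rows with a mean of at least 1 FPKM (12275) were compared as log2(FPKM + 1) with limma 3.58.1 in R 4.3.3 (eBayes with trend, two-sided, Benjamini-Hochberg over all 12275, threshold 0.05). Fold changes on this scale understate changes of low genes. The median standard error was 0.33. The fit was tested on simulated data. FPKM holds no counts, so depth was read from low values: 1 fragment per kilobase was worth 0.0180 FPKM in control replicate 1 and 0.0437 to 0.0497 FPKM elsewhere. Fragment numbers are approximate, from GENCODE M21 transcript lengths.

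The members, lists and marker sets were chosen with earlier results of these data known. Members averaging at least 10 FPKM or with groups that did not overlap are given with all values, others where a sentence needs them. Each other pathway list gives at most 5 genes, those farthest apart whose groups did not overlap and whose mean reached 5 FPKM, besides Gapdh and the partners Egln2, Arnt, Slc16a1 and Gpd1. Hk3, Ufsp2 and Ccr2 were added after their values were seen. A planned comparison of protein sequences was not made. Alternatives covered the pseudocount, the filter, 2 normalizations, a robust fit, a replicate block, leaving out each library and leaving out Gpd2.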

Additional observations from a re-analysis of the deposited data

How the results depend on the processing

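The 33 genes in the fit kept their direction and stayed uncalled with a pseudocount of 0.1, without the filter, with the robust fit and, for the 29 that passed it, with a mean of at least 5 FPKM. Quantile normalization turned Gpi1 to 0.0376 and Pdk2 to -0.11, and median-of-ratios scaling turned Gpi1 to 0.0138 and Aldoa to 0.0314. Across 12275 genes, replicate 2 minus replicate 1 in the controls and in the DKK2 libraries hardly correlated (r = 0.01). This cannot show whether same-numbered libraries share an animal or a day. With the number as a replicate block 8 genes of the table were called, 2 higher and 6 lower, and 0 of the list. Without the block 4 genes of the table were called, 1 higher and 3 lower. Without the filter 0 genes of the table were called (0 higher, 0 lower; 570 and 379 at an unadjusted p under 0.05), and quantile normalization, scaling and the robust fit gave 2 higher. Leaving out 1 library called 0 genes of the table each time, and the list's lowest adjusted p over all these settings was 0.428 (limma, without control replicate 2). It moved the list's genes above 0 between 12 and 27, those below between 7 and 21, those with DKK2 libraries above all controls between 6 (18.2%, without control replicate 1; 25.7% of all genes) and 19 (55.9%, without DKK2 replicate 1; 32.9% of all genes) and below between 3 (8.82%, without DKK2 replicate 1; 34.3% of all genes) and 13 (39.4%, without DKK2 replicate 2; 42% of all genes), and the median between -0.13 and 0.23. It kept the direction of 13 genes and turned that of 20, whose cause was not tested. Their ranges were -0.80 to 0.17 for Slc2a1, -0.46 to 0.28 for Slc2a3, -0.35 to 1.24 for Slc16a3, -1.02 to 0.34 for Hk1, -0.27 to 0.80 for Hk2, -0.49 to 0.43 for Gpi1, -1.06 to 0.43 for Pfkl, -0.0045 to 0.31 for Pfkp, -0.41 to 0.39 for Aldoa, -0.45 to 0.0088 for Tpi1, -0.66 to 0.20 for Eno1, -0.66 to 0.10 for Pkm2, -0.32 to 0.90 for Pdk1, -0.22 to 0.31 for Pdk2, -0.14 to 0.49 for Pdk3, -0.73 to 0.14 for Hif1a, -0.10 to 0.76 for Bnip3l, -0.40 to 0.62 for Vegfa, -0.11 to 0.89 for P4ha1 and -0.46 to 0.25 for Ero1l. Where an arm held 1 library, limma assumed that it varied like the others. Values of Eno2 and Ldhb rest on 0.07 to 23 fragments, too few for a comparison.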
